A study of Mus musculus with 13 samples.

Results

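Imprinted growth genes were followed by cell type, age and genotype in single-cell libraries of developing mouse skin. The genes were chosen by symbol from a list of 9, namely H19, Igf2, Dlk1, Meg3, Rian, Cdkn1c, Peg3, Grb10 and Plagl1, and 8 of them have a row among the 27998 gene identifiers of the deposited matrices. Rian was not analysed here. The libraries are droplet libraries (10x Genomics Chromium, 3′ end) of C57BL/6 mice, 1 sample each, with 2 WT and 2 Grhl3-/- libraries of whole back skin at E14.5, 2 and 2 of back skin at E16.5, and 2 and 2 of epidermis at P0. A further P0 WT epidermis library was made with the v1 chemistry and has no replicate. Grhl3 codes for a transcription factor of the epidermal barrier, and Grhl3-/- animals lack it in every cell and have a spina bifida, so that skin anterior to the defect was taken. WT and Grhl3-/- embryos were littermates. The study asked how the interfollicular epidermis differentiates before birth and how that course depends on Grhl3. Dermis is absent by design at P0, so age and tissue change together between E16.5 and P0.

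Imprinted genes are read from the copy of 1 parent only, under the control of DNA methylation marks set in the germ line. Paternally expressed members tend to promote growth of the fetus and maternally expressed ones to restrain it. Igf2 codes for the fetal insulin-like growth factor and lies beside H19, a noncoding RNA read from the maternal copy, and both share enhancers. Dlk1, a membrane protein related to the Notch ligands, is read from the paternal copy, and its neighbour Meg3, a long noncoding RNA, from the maternal copy. Rian is another noncoding RNA of that domain. Cdkn1c, a maternally expressed inhibitor of cyclin-dependent kinases, holds cells out of the cycle. Peg3 and Plagl1 are paternally expressed zinc finger proteins, and Grb10 is an adaptor that limits signalling from the insulin and insulin-like growth factor receptors. Many imprinted genes are high in fetal tissue and decline around birth. The libraries count transcripts without telling the parental copies apart, so that no value below is a measure of imprinting itself.

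The 8 genes lie on 4 chromosomes (GENCODE M21 on GRCm38). H19 (ENSMUSG00000000031, chr7:142575529-142578143, minus strand) and Igf2 (ENSMUSG00000048583, chr7:142650766-142666816, minus strand) are 72.6 kb apart, and Cdkn1c (ENSMUSG00000037664, chr7:143458339-143461050, minus strand) lies on the same chromosome. Peg3 (ENSMUSG00000002265, chr7:6703892-6730431, minus strand) is far from them. Dlk1 (ENSMUSG00000040856, chr12:109452823-109463336, plus strand) and Meg3 (ENSMUSG00000021268, chr12:109541001-109571726, plus strand) are 77.7 kb apart. Grb10 (ENSMUSG00000020176) is at chr11:11930508-12038683 on the minus strand and Plagl1 (ENSMUSG00000019817) at chr10:13060504-13131694 on the plus strand. The promoters of the Dlk1 and Meg3 pair are shown because this pair came apart in 1 library, and that of Peg3 because it fell in newborn Grhl3-/- keratinocytes of both the basal-like and the hair follicle-like class under every setting that gave a value. They are RefSeq sequences on GRCm38.p6 from 250 bases before to 50 bases after the transcript start, written along the gene's own strand, and capitals mark the cyclic AMP response element TGACGTCA.
Dlk1, chr12:109452573-109452872, plus strand: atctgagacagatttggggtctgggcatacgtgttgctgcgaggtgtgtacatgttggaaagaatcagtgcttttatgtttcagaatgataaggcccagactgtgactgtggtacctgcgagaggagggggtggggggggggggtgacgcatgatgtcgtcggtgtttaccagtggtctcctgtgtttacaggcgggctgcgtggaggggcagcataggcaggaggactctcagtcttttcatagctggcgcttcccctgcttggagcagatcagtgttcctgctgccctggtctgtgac
Meg3, chr12:109540746-109541045, plus strand: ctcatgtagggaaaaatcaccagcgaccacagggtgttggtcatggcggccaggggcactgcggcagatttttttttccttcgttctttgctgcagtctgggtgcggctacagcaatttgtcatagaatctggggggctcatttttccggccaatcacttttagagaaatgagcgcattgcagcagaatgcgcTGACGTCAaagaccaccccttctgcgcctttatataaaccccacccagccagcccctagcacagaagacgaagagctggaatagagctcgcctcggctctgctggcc
Peg3, chr7:6730370-6730669, minus strand: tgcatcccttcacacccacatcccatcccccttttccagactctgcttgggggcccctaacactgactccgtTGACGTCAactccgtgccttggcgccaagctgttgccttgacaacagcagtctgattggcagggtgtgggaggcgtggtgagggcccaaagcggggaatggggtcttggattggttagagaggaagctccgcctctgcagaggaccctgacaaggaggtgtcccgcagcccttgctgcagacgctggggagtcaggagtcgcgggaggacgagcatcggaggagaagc
The element was searched on both strands and is its own reverse complement. It begins 57 bases before the start of Meg3 and 178 bases before that of Peg3, and was not found in the other Meg3 window or in those used here of Dlk1, Igf2, Grb10, Plagl1 and Rian. H19 and Cdkn1c were not searched. Over all 32851 promoter windows of this length 588 (1.79%) hold it. A match is a description of the letters and no sign of binding.

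The limits of the methods on detected genes and mitochondrial UMIs left 5058 to 9157 cells and 49195602 to 105580896 unique molecular identifiers (UMIs, each marking 1 captured transcript) per library, with a median of 7448 to 9976 UMIs per cell. Cells were clustered with the members, other imprinted genes and genes of the insulin-like growth factor axis left out, and clusters were named from marker genes, with score limits chosen once the scores were known. Levels are given as CPM, counts scaled to 1e6 UMIs summed over all cells of that class in a library. Grhl3 in differentiated-like cells stood at 84.8 and 108 CPM in WT against 59.0 and 61.8 CPM in Grhl3-/- at E14.5, at 35.9 and 37.7 against 14.8 and 10.4 CPM at E16.5, and at 46.4 and 43.7 against 15.2 and 4.89 CPM at P0. These 3′ tags need not lie in the deleted part of the gene, which is not given in the sources used here. Transcripts of Xist and of Y genes placed both E16.5 WT libraries with female and both E14.5 Grhl3-/- libraries with male animals, although the methods name 1 of each sex per genotype and age, so that sex and genotype cannot be told apart fully at those ages. Fibroblast-like cells numbered 1799 to 3108 per skin library and basal-like cells 194 to 1633 over the v2 libraries. Large fibroblast clusters stayed unnamed at E14.5 and E16.5, and their inclusion is given below where it changes a call.

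Transcripts of the dermis reach other droplets as free RNA or in doublets, which matters for genes as high in fibroblasts as these. The collagen level of a class, as a percentage of that in fibroblast-like cells of the same library, was multiplied by the fibroblast-like level of each gene. This gives the largest level that RNA of fibroblast-like cells could carry, called the level of free RNA below. RNA of other skin cells is not counted, and some of them had more Cdkn1c, H19 or Igf2 than fibroblast-like cells. For Dlk1 in basal-like cells this left 188 CPM in E14.5 WT replicate 1 and between -9.49 and 18.9 CPM in the other E14.5 libraries, and between -75.3 and 6.65 CPM at E16.5. For Meg3 it left between -182 and -26.0 CPM at E14.5. Dlk1 and Meg3 in embryonic keratinocytes were therefore at or near the level of free RNA, with the exception of Dlk1 in that 1 library. The basal-like levels of H19 (582 to 639 CPM left at E14.5, 754 to 828 at E16.5), Cdkn1c (191 to 306 and 77.2 to 166), Peg3 (62.9 to 66.6 and 40.0 to 58.8), Grb10 (74.5 to 88.3 and 22.5 to 39.9), Igf2 (38.5 to 47.9 and 22.1 to 33.8) and Plagl1 (4.26 to 24.1 and 4.35 to 18.2) lay above it in every library.

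One library stood apart in the Dlk1-Meg3 domain. Fibroblast-like cells of E14.5 WT replicate 1 had 2742 CPM of Meg3, whereas WT replicate 2 had 7984 CPM and the Grhl3-/- libraries 7361 and 7111 CPM. Dlk1 showed the opposite order, with 8496 CPM in WT replicate 1 against 5544 CPM in WT replicate 2 and 4832 and 4617 CPM in Grhl3-/-. With every cell thinned to 3000 UMIs, 1132 of 2131 fibroblast-like cells (53.1%) of WT replicate 1 had no Meg3 UMI. In WT replicate 2 this was so for 25 of 2899 cells (0.862%), in Grhl3-/- replicate 1 for 42 of 2805 (1.5%) and in replicate 2 for 39 of 2990 (1.3%). At E16.5 it was so for 2.87 to 4.24%. At full depth the cells of WT replicate 1 without Meg3 had 13.6 CPM of it. Those with it had 5792 CPM, against 7161 to 8032 CPM in such cells of the other E14.5 libraries. The low level of Meg3 thus came largely from cells with no UMI among 3000 beside cells with a high level, since 628 of the cells of WT replicate 1 had 10 or more UMIs. H19 and Igf2 had no such excess of empty cells. H19 was missing in 9.15% of these cells against 12.6 to 14.7% in the other E14.5 libraries, and Igf2 in 32.7% against 36.5 to 41.7%. For Cdkn1c, Peg3, Grb10 and Plagl1 this share was not taken.

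The cells without Meg3 were not a cell type of their own. In each of the 8 fibroblast-like clusters of E14.5 they made up 47.0 to 61.0% of the cells of WT replicate 1, and at most 5.51% of those of any other E14.5 library. The same held in pericyte-like cells (49.3% against 4.14 to 5.62%), in skeletal muscle-like cells (60.8% against 2.34 to 5.66%) and in Schwann-like cells (68.5% against 15.3 to 22.6%). In WT replicate 1 the fibroblast-like cells without Meg3 had 11035 CPM of Dlk1, and the cells with Meg3 had 5673 CPM. Fibroblast-like cells with Meg3 in the other 3 libraries had 4633 to 5560 CPM of Dlk1, so that the cells of WT replicate 1 that had Meg3 lay just above that range and the cells without it far above.

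Further genes of the domain, chosen after their values had been seen, divided in the same way. Rtl1, a retrotransposon-derived gene read from the paternal copy, had 44.3 CPM (441 UMIs) in the cells without Meg3 and 10.7 CPM (95 UMIs) in the cells with it. Dio3, the thyroid hormone deiodinase at the far end of the domain, had 59.0 CPM (588 UMIs) and 15.1 CPM (134 UMIs). Mirg, a maternally read host of microRNAs, had 3.41 CPM (34 UMIs) and 38.0 CPM (338 UMIs). The paternally read genes Dlk1, Rtl1 and Dio3 were thus higher and the maternally read genes Meg3 and Mirg lower in the same cells. Among 5582 genes ranked by their log2 difference within clusters (5 CPM added), the highest were Rtl1 (1.37), Dlk1 (0.92), Cisd1 on chromosome 10 (0.83), Dio3 (0.80) and Begain on chromosome 12 (0.60). After Meg3 itself the lowest were the hemoglobin genes Hbb-y (-1.15), Hba-a1 (-0.58) and Hba-a2 (-0.54), so erythroid transcripts moved with the division, and their part in it was not tested. H19 ranked 40 (0.33) and Igf2 71 (0.28).

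Neither depth, proliferation nor sex transcripts divided the 2 groups of cells. The median was 8358 UMIs in cells without Meg3 and 8402 in cells with it, 50.5% and 52.6% were proliferating, 61.6% and 62.5% had a UMI of any of 4 Y genes, and 0.265% and 0.300% had one of Xist. Collagen levels were 12554 and 12044 CPM. The cells were chosen by Meg3 and all come from 1 library, so no test was made, and the tests on Dlk1 or Meg3 at E14.5 are given with and without that library.

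**Figure D1:**
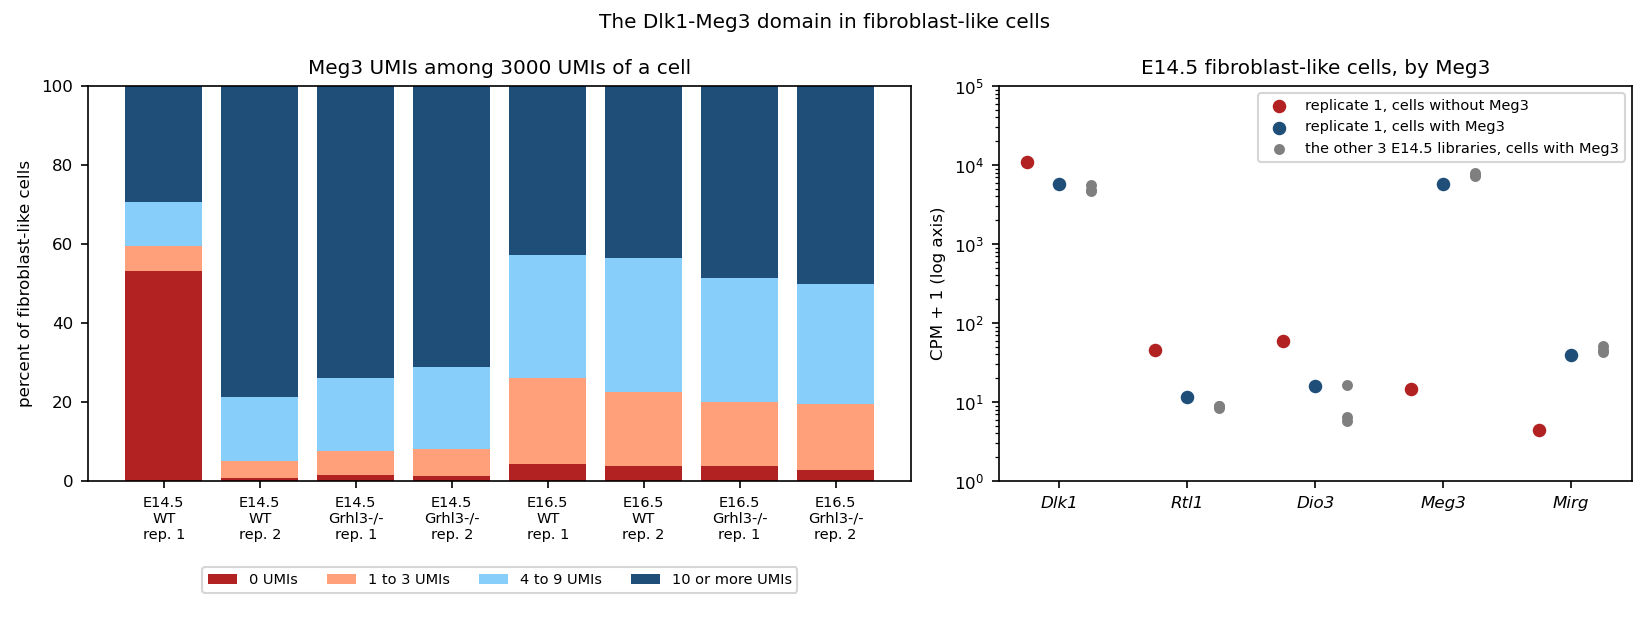
Left, percent of fibroblast-like cells with 0, 1 to 3, 4 to 9 and 10 or more Meg3 UMIs among 3000 UMIs per cell, 1 stacked bar for each of the 8 skin libraries. Right, CPM of 5 genes of the Dlk1-Meg3 domain in fibroblast-like cells without and with Meg3 of E14.5 WT replicate 1 and in cells with Meg3 of the other 3 E14.5 libraries. E14.5 WT replicate 1 has 53.1% of cells at 0 against 0.862 to 4.24% in the others, and its cells without Meg3 have more Dlk1, Rtl1 and Dio3 and less Mirg.

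The members were higher in fibroblast-like than in basal-like cells of embryonic skin. Orders of classes are over those with 20 or more cells in all 4 libraries of an age. For all 8 members and at both ages the median over the 4 libraries was the higher one in fibroblast-like cells. Dlk1 was highest in fibroblast-like cells, with 4617 to 8496 CPM at E14.5 (to 5544 without E14.5 WT replicate 1) and 4707 to 5437 CPM at E16.5, and pericyte-like cells came next without overlap at 1823 to 3711 (to 2281 without it) and 2677 to 3237 CPM. Peg3 was likewise highest in fibroblast-like cells, at 624 to 708 CPM and 476 to 556 CPM, with skeletal muscle-like cells (274 to 320 and 222 to 261 CPM) and erythroid-like cells (198 to 275 and 161 to 276 CPM) next, which overlapped each other. The erythroid-like level of Peg3 was at the level of free RNA, whose subtraction left -8.61 to 27.0 CPM at E14.5 and -25.9 to 18.7 CPM at E16.5. Skeletal muscle-like cells kept 236 to 281 and 184 to 241 CPM. Meg3 had its highest E16.5 level in dermal condensate-like cells (6042 to 6966 CPM), the mesenchyme that forms hair follicle papillae, above fibroblast-like (4056 to 4608) and skeletal muscle-like cells (3648 to 4354), whose ranges overlapped.

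Cdkn1c was highest in skeletal muscle-like cells, with 8876 to 9429 CPM at E14.5 and 11293 to 14489 CPM at E16.5. Fibroblast-like cells followed at 2713 to 3990 and 2944 to 3399 CPM, and dermal condensate-like cells at E16.5 at 1989 to 2176 CPM. None of these ranges overlapped. Cdkn1c helps muscle precursors to leave the cell cycle.

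H19 and Igf2 did not follow Dlk1 and Meg3 in their order. At E16.5 H19 was highest in endothelial-like cells at 1884 to 2466 CPM, where skeletal muscle-like cells with 1150 to 2077 CPM overlapped them, and fibroblast-like cells lay at 1598 to 1665 CPM. Igf2 was at 461 to 691 CPM in endothelial-like and 404 to 421 CPM in fibroblast-like cells at E16.5, and the same classes overlapped at E14.5 (356 to 492 and 403 to 560). Grb10 at E14.5 did not separate skeletal muscle-like (232 to 246), endothelial-like (195 to 251) and fibroblast-like cells (175 to 233). Plagl1 overlapped between fibroblast-like (259 to 363) and skeletal muscle-like cells (281 to 329) at E14.5.

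At P0 H19 and Peg3 remained high in basal-like cells, and Dlk1 was close to 0 in every class and Meg3 in all but Merkel-like cells. In P0 epidermis, basal-like cells had the highest median level of H19 (571 to 1704 CPM over the 4 v2 libraries) and of Igf2 (19.7 to 72.0 CPM) of the 9 classes with 20 or more cells in all 4 libraries. Only differentiated-like cells overlapped them, and upper hair follicle-like cells, for example, had 69.5 to 116 CPM of H19 and 0.495 to 3.30 CPM of Igf2. Peg3 in basal-like cells (65.8 to 202 CPM) overlapped upper hair follicle-like (70.8 to 155), sebaceous-like (61.1 to 94.3) and hair follicle-like cells (34.2 to 128). Grb10 was highest at P0 in melanocyte-like cells, with 80.7 to 96.0 CPM against 7.15 to 11.6 CPM in T cell-like cells, the next of the 9 classes, and Plagl1 in melanocyte-like cells had 50.8 to 73.7 CPM. Dlk1 was at most 5.23 CPM in any named class of P0 epidermis, and Meg3 at most 16.4 CPM in any but Merkel-like cells, the touch receptor cells of the epidermis.

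Merkel-like cells are outside these orders, since they reached 20 cells in only 3 of the 4 v2 P0 libraries. They had 525 and 597 CPM of Meg3 in WT (170 and 240 UMIs from 43 and 60 cells) and 311 CPM in Grhl3-/- replicate 1 (62 UMIs from 23 cells), all above the 16.4 CPM of the other classes. No Dlk1 UMI was found in these same cells, so that the pair was apart there. Grb10 had 12.4 and 9.95 CPM in WT and 5.01 CPM in Grhl3-/- Merkel-like cells (4, 4 and 1 UMIs), which overlapped the T cell-like level. With 1 Grhl3-/- library no test between genotypes was made.

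**Figure D2:**
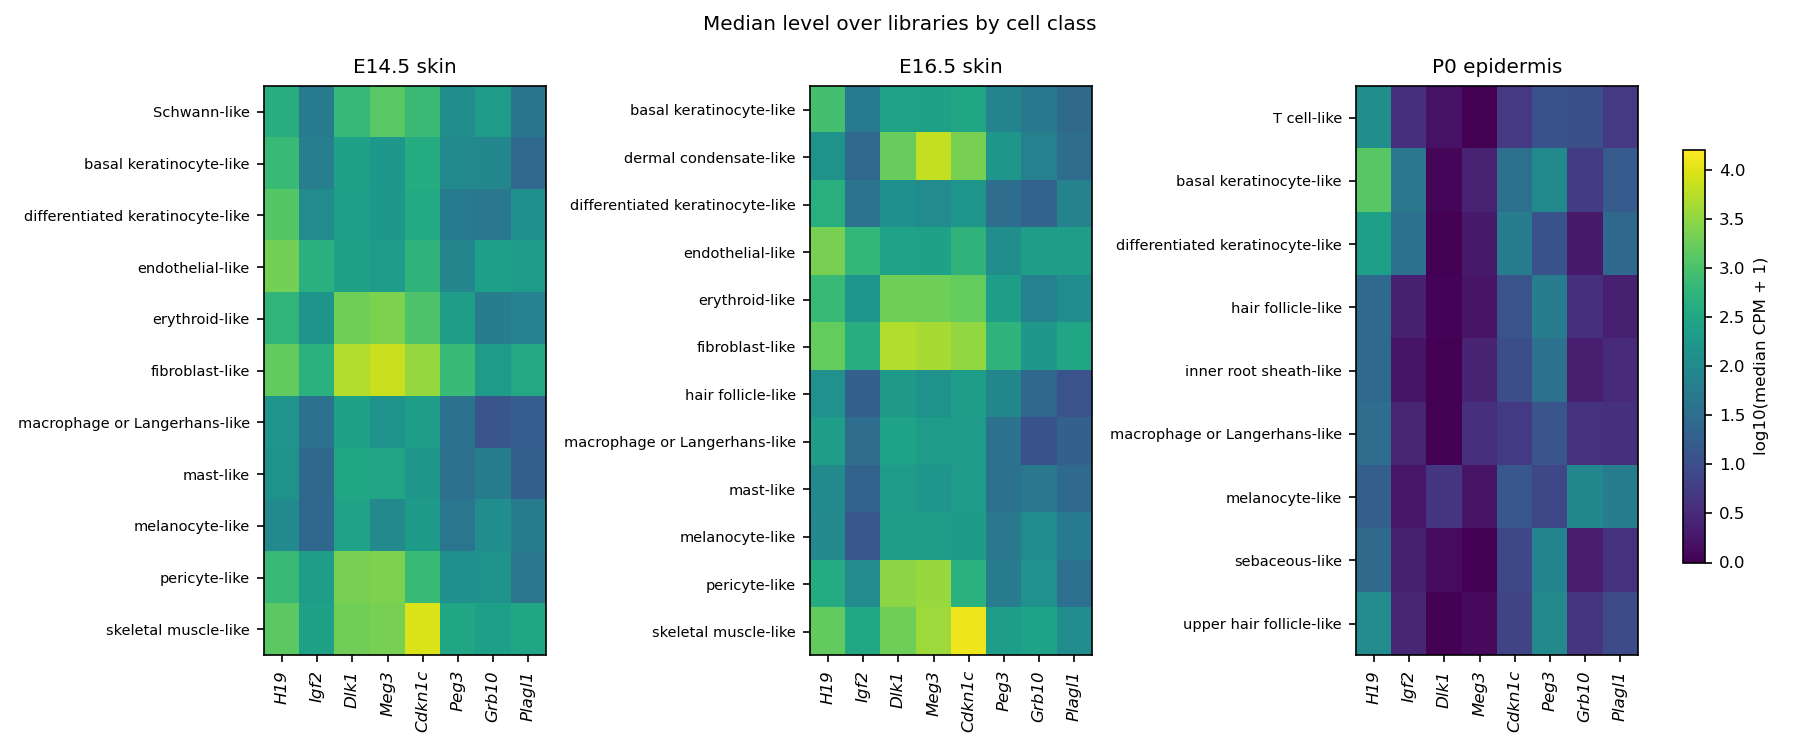
Heat map of the log10 of the median CPM with 1 added for each of the 8 members (columns) in each cell class with 20 or more cells in all 4 libraries (rows) at E14.5, E16.5 and in P0 epidermis. Before birth fibroblast-like cells are high for every member and skeletal muscle-like cells highest for Cdkn1c, and at P0 H19 remains high in basal-like cells while Dlk1 and Meg3 are low in the 9 classes shown.

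**Figure D3:**
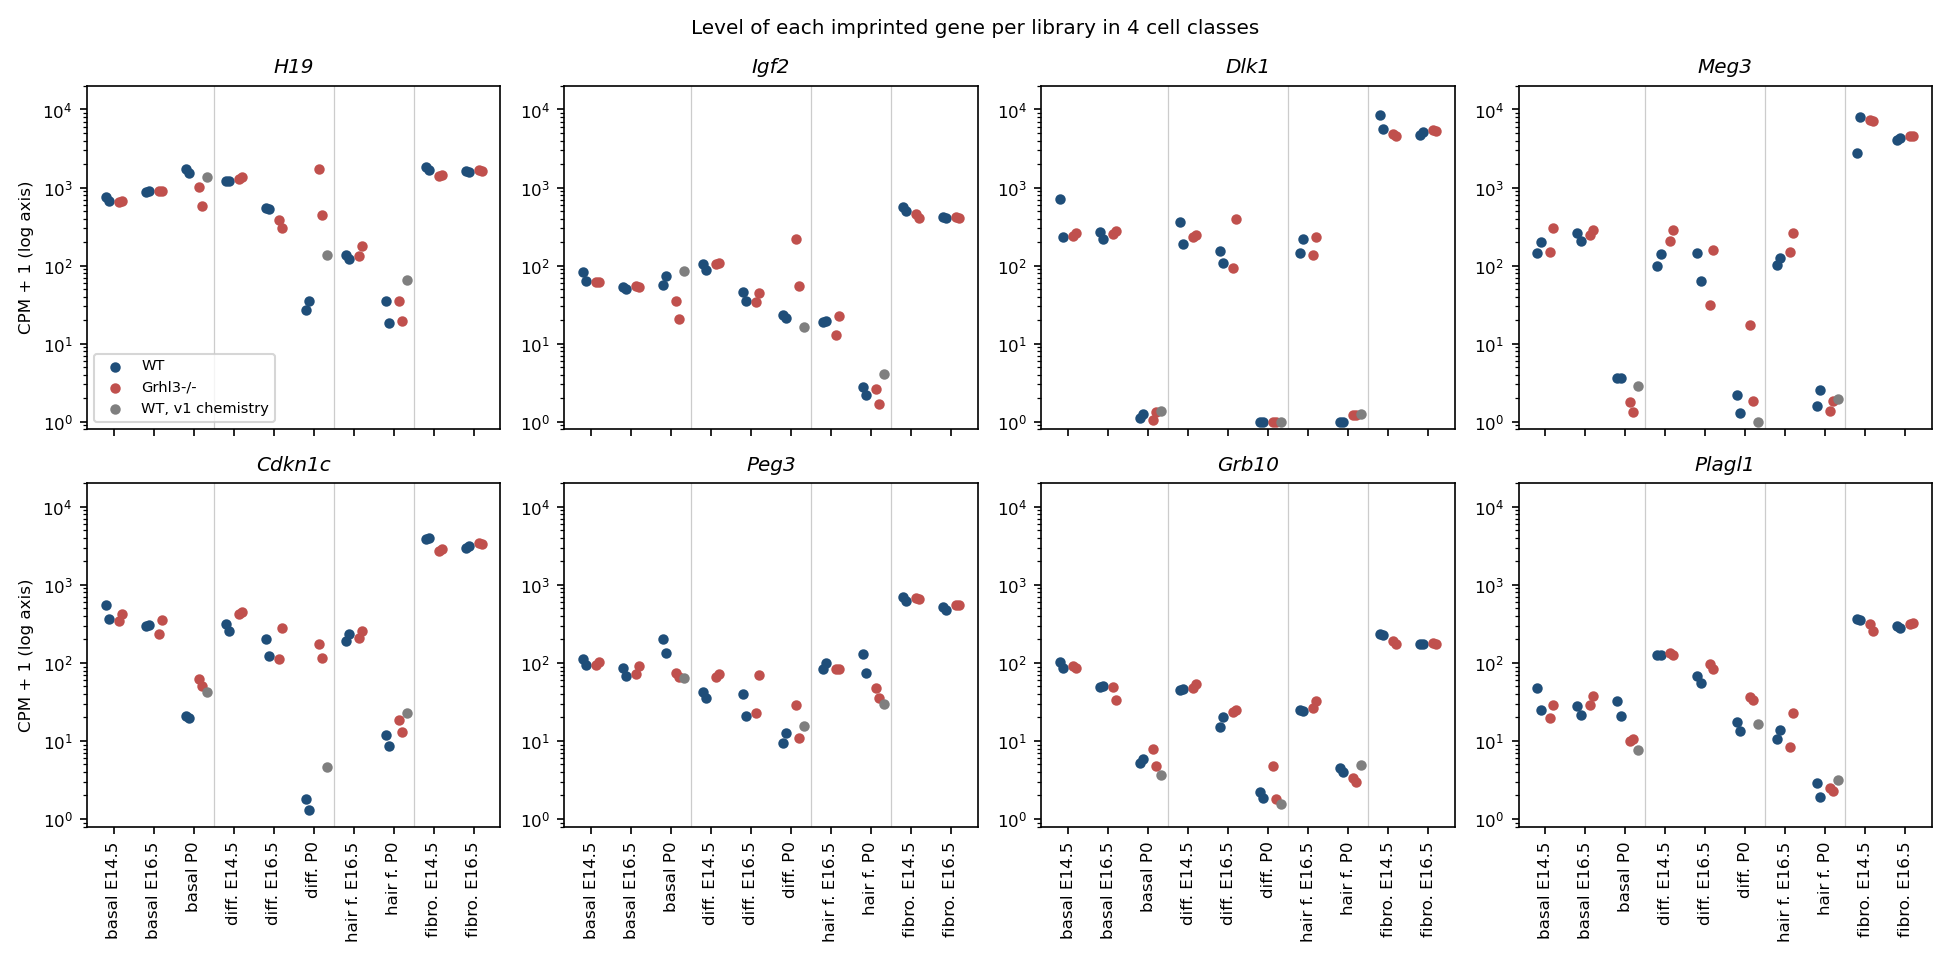
CPM with 1 added (log axis) of each of the 8 members, 1 panel per gene, in basal-like, differentiated-like, hair follicle-like and fibroblast-like cells at each age, with 1 point per library coloured by genotype and the v1 library apart. The WT basal-like levels of Cdkn1c, Grb10, Meg3 and Dlk1 drop between E16.5 and P0 while H19 and Peg3 do not.

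The course in WT basal-like cells was read first between E14.5 and E16.5. Grb10 had 103 and 84.1 CPM in the E14.5 WT libraries and 48.8 and 49.7 CPM at E16.5. It fell by 0.81 ± 0.19 on the log2 scale (SE, n = 2 libraries per age, edgeR adjusted p = 0.00965), and was the 1 of 8 members past the threshold, where 16.1% of all 12466 genes passed. Without E14.5 WT replicate 1 the difference was -0.67 (edgeR adjusted p = 0.0815). That library also held 17088 CPM of erythroid marker genes in its basal-like cells, against 703 to 5105 CPM in the other E14.5 libraries. The class itself changed between these ages in WT, with basal markers at 7646 and 7735 and then 22674 and 25422 CPM and differentiation markers at 187 and 175 and then 2206 and 2593 CPM, and their part in the Grb10 difference was not tested. H19 stood at 754 and 667 CPM at E14.5 and at 873 and 899 CPM at E16.5, and did not pass.

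Between E16.5 skin and P0 epidermis, 6 of 8 members passed in WT basal-like cells, where 60.7% of all genes did. Cdkn1c had 298 and 304 CPM at E16.5 and 19.7 and 18.8 CPM (168 and 156 UMIs) at P0, and fell by 3.99 ± 0.24 (edgeR adjusted p = 3.29e-09). Grb10 went from 48.8 and 49.7 CPM to 4.21 and 4.94 CPM and fell by 3.44 ± 0.24 (edgeR adjusted p = 1.68e-08). Meg3 went from 262 and 203 CPM to 2.57 and 2.65 CPM (22 UMIs in each library) and fell by 6.49 ± 0.35 (edgeR adjusted p = 1.56e-09). Dlk1 went from 267 and 221 CPM to 1 and 2 UMIs in a whole library's basal-like cells, and 3 UMIs there would be 0.351 and 0.361 CPM. Both were at the level of free RNA at E16.5, when dermis was in the sample. For Cdkn1c free RNA of fibroblast-like cells could carry up to 214 and 183 CPM of the E16.5 levels. This leaves 84.2 and 121 CPM and a smaller fall than the one fitted. Age and the removal of the dermis cannot be told apart in these comparisons.

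Peg3 and H19 went the other way. Peg3 had 84.6 and 67.3 CPM at E16.5 and 202 and 132 CPM at P0, and rose by 1.11 ± 0.18 (edgeR adjusted p = 7.06e-05), a call that held under every alternative run. The v1 P0 WT library, which was not tested, had 64.0 CPM of Peg3, below both E16.5 WT libraries, and 1347 CPM of H19, above both. H19 rose from 873 and 899 CPM to 1704 and 1553 CPM, by 0.86 ± 0.20 (edgeR adjusted p = 0.00194). When unnamed clusters were added to their nearest class the H19 difference was 0.08 (edgeR adjusted p = 0.823), so this rise holds for the basal-like cells as named here and not for the wider set. Igf2 (52.5 and 49.7 CPM, then 55.8 and 72.0 CPM) and Plagl1 (26.8 and 20.4 CPM, then 31.7 and 19.6 CPM) did not pass. Subtraction of free RNA left 22.1 and 26.6 CPM of Igf2 and 5.15 and 4.35 CPM of Plagl1 at E16.5. These lie below the P0 levels of both v2 libraries, a difference that was not tested. The v1 library had 84.3 CPM of Igf2 and 6.64 CPM of Plagl1.

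In differentiated-like cells, the layers above the basal one, most members were lowest at P0. H19 had 1227 and 1224 CPM in WT at E14.5, 552 and 526 CPM at E16.5 and 25.8 and 33.9 CPM at P0. The last step was a fall by 3.91 on the log2 scale, whereas the first (-0.85) did not pass. Plagl1 was higher in differentiated-like than in basal-like cells in every embryonic library, with 126 and 124 CPM in WT at E14.5 and 67.6 and 55.0 CPM at E16.5 after a fall by 0.69 ± 0.16 (edgeR adjusted p = 0.00567), a call lost without E16.5 WT replicate 2 (edgeR adjusted p = 0.0777). Grb10 fell by 1.06 ± 0.21 over the same days (edgeR adjusted p = 0.00215). These 2 of 8 members stand beside 28.9% of 10792 genes. From E16.5 to P0 7 of 8 members fell, with Igf2 (-0.62) the exception, and 46.3% of genes passed in either direction. At E16.5 subtraction of free RNA left -57.1 and -38.2 CPM of Dlk1 and -34.3 and -61.6 CPM of Meg3 in WT. Both falls thus start from the level of free RNA. For Peg3 15.9 and 6.65 CPM were left, against 8.32 and 11.5 CPM at P0, so that no fall is clear. H19 kept 479 and 481 CPM and Plagl1 54.5 and 47.1 CPM. Cdkn1c and Grb10 start lower than in the fit. Age and the removal of the dermis cannot be told apart for any of these falls. At resolution 0.6 H19 (-0.58) did not pass over these days and Plagl1 (from -1.83 to 0.38, edgeR adjusted p = 0.427) turned its direction, and the earlier Grb10 call was lost (-0.50). The class is not the same at each age, since it was led by Krt1 and Krt10 at E14.5 and by Flg and Lor, genes of the uppermost layers, at P0.

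In hair follicle-like cells 7 of 8 members fell between E16.5 and P0 in WT, where 48.3% of 11981 genes passed. H19 went from 135 and 121 CPM to 34.1 and 17.2 CPM, a fall by 2.23. Igf2 fell by 3.52, Cdkn1c by 4.43, Grb10 by 2.75, Plagl1 by 2.91 and Meg3 by 6.50, and no Dlk1 UMI was left at P0, where 3 UMIs would be 0.349 and 0.275 CPM. Peg3 (0.24) did not pass. Before subtraction of free RNA these cells had the lowest or among the lowest embryonic levels of H19, Igf2 and Plagl1, and after it 47.2 to 88.7 CPM of H19 and between -6.31 and 2.18 CPM of Plagl1 were left at E16.5. In the 2 WT libraries -4.65 and 3.27 CPM of Igf2, -107 and 27.4 CPM of Dlk1 and -117 and -39.7 CPM of Meg3 were left, so that these falls and that of Plagl1 start from the level of free RNA. For Cdkn1c 33.9 and 117 of 192 and 236 CPM and for H19 47.2 and 61.1 CPM were left, smaller starting levels than those in the fit. Age and the removal of the dermis cannot be told apart for any of these falls.

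Fibroblast-like cells could be compared between E14.5 and E16.5 only. Cdkn1c (3895 and 3990 CPM, then 2944 and 3196 CPM) fell by 0.22 (edgeR adjusted p = 0.0212), Grb10 (233 and 224, then 173 and 172 CPM) by 0.26 (edgeR adjusted p = 0.0177) and Peg3 (708 and 624, then 514 and 476 CPM) by 0.28 (edgeR adjusted p = 0.0343), while 37.3% of 14131 genes passed. When cells were clustered at resolution 0.6 the Cdkn1c difference turned to 0.41 (edgeR adjusted p = 0.00312) and the other 2 calls were lost, so the direction for Cdkn1c rests on the grouping of cells. Each of these 3 calls was also lost when at least 1 of the libraries was left out, and without E14.5 WT replicate 1 Grb10 stood at -0.19 (edgeR adjusted p = 0.0731) and Peg3 at -0.14 (edgeR adjusted p = 0.174). For Meg3 the same difference was -0.18 (edgeR adjusted p = 0.699) over all libraries. It was -0.73 (edgeR adjusted p = 2.17e-05) without E14.5 WT replicate 1 and 0.72 (edgeR adjusted p = 4.07e-05) without replicate 2, so the direction rests on which WT library is taken. Dlk1 gave -0.38 (edgeR adjusted p = 0.114) in all and 0.01 without replicate 1.

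The WT change from E14.5 to E16.5 was compared directly between fibroblast-like and basal-like cells of the same libraries. Of 8 members 3 differed, against 16.6% of 13793 genes. Grb10 fell less in fibroblast-like cells, by a difference of 0.57 ± 0.12 (edgeR adjusted p = 0.000754), under every alternative run. H19 differed by -0.38 ± 0.10 (edgeR adjusted p = 0.00446), a call lost without E16.5 WT replicate 1 (edgeR adjusted p = 0.147) or replicate 2 (edgeR adjusted p = 0.32) and at resolution 0.6 (edgeR adjusted p = 0.105). Meg3 differed by -0.58 ± 0.17 (edgeR adjusted p = 0.0143), which became -1.06 without E14.5 WT replicate 1 and -0.04 without replicate 2, and turned to 0.86 (edgeR adjusted p = 0.000198) without integration.

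WT and Grhl3-/- basal-like cells differed in most members at P0, whereas no member passed before birth. At E14.5 no member passed, where 0.00802% of genes did, and 1 member (Dlk1, -0.97) had an unadjusted edgeR p under 0.05. Without E14.5 WT replicate 2 the Dlk1 difference was -1.61 (edgeR adjusted p = 9.42e-05) and without replicate 1 it was 0.10 (edgeR adjusted p = 1.0). At E16.5 no member passed, none had an unadjusted edgeR p under 0.05, and 0.297% of genes passed. DESeq2 called no member at either age. Free RNA was not subtracted in these fits. Its subtraction left 5.15 and 4.35 CPM of Plagl1 in WT and 13.4 and 18.2 CPM in Grhl3-/- at E16.5. Igf2 was left at 22.1 and 26.6 against 33.8 and 29.5 CPM, and H19 at 754 and 808 against 828 and 813 CPM. What was left of Peg3 and Grb10 overlapped between genotypes, and none of these values was tested. At P0 6 of 8 members passed, against 36.5% of all genes, 1 upward and 5 downward, and the median log2 difference of the members was -1.1 where that of all genes was 0.

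Cdkn1c was the member that rose. P0 basal-like cells had 19.7 and 18.8 CPM in WT (168 and 156 UMIs) and 61.1 and 49.1 CPM in Grhl3-/- (1107 and 314 UMIs). This was a 2.89-fold difference, log2 1.53 ± 0.23 (SE, n = 2 and 2, edgeR adjusted p = 0.00012), and the groups did not overlap. The v1 WT library had 41.4 CPM, between the groups, though its chemistry differs.

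H19 and Igf2 fell together. H19 was at 1704 and 1553 CPM in WT and 1018 and 571 CPM in Grhl3-/-, 2.03-fold lower, log2 -1.02 ± 0.21 (edgeR adjusted p = 0.00124). The Grhl3-/- libraries differed from each other, and the difference was -0.64 without replicate 2 and -1.59 without replicate 1. Igf2 was at 55.8 and 72.0 CPM in WT and 34.0 and 19.7 CPM in Grhl3-/-, 2.28-fold lower, log2 -1.19 ± 0.21 (edgeR adjusted p = 0.000551). The v1 WT library had 1347 CPM of H19 and 84.3 CPM of Igf2, above both Grhl3-/- libraries.

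The zinc finger genes Peg3 and Plagl1 fell as well. Peg3 had 202 and 132 CPM in WT against 74.2 and 65.8 CPM in Grhl3-/-, log2 -1.24 ± 0.18 (edgeR adjusted p = 9.13e-05). Plagl1 had 31.7 and 19.6 CPM against 8.94 and 9.53 CPM, log2 -1.47 ± 0.28 (edgeR adjusted p = 0.000887). For these 2 genes the v1 WT library, at 64.0 CPM of Peg3 and 6.64 CPM of Plagl1, lay below both Grhl3-/- libraries. Calls for Cdkn1c, H19, Igf2, Peg3 and Plagl1 held under every alternative run.

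Meg3 was at 22 and 22 UMIs in WT basal-like cells at P0 and at 14 and 2 UMIs in Grhl3-/-, or 2.57 and 2.65 against 0.773 and 0.312 CPM. The fall by 1.96 ± 0.65 (edgeR adjusted p = 0.0282) did not hold when any 1 of the 4 libraries was left out (edgeR adjusted p from 0.0548 to 0.0914). Dlk1 had 1 or 2 UMIs in every v2 library and gives no fold. Grb10 (4.21 and 4.94 against 6.85 and 3.75 CPM) did not pass, at 0.35.

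Other values of these P0 basal-like cells moved with the genotype. Differentiation markers summed to 3734 and 4316 CPM in WT and 1598 and 1464 CPM in Grhl3-/-, proliferation markers to 1270 and 1204 against 1381 and 1762 CPM, and fibroblast markers to 201 and 193 against 419 and 379 CPM. Basal markers overlapped, at 23143 and 23101 CPM in WT and 25992 and 21352 CPM in Grhl3-/-. Of the 2 clusters that make up the class the larger held 63.0% of its Grhl3-/- and 48.4% of its WT cells. The part of these markers and clusters in the differences of the members was not tested. In the paper H19 and Igf2 are higher in the P0 basal population IFE.B1 than in IFE.B2. The 2 clusters were not matched to those populations here.

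The genotype difference at P0 was then compared with that at E16.5 within basal-like cells. Of 8 members 5 differed, where 14.4% of genes did. The difference of differences was 1.64 ± 0.31 for Cdkn1c (edgeR adjusted p = 0.00267), -1.24 ± 0.27 for Peg3 (edgeR adjusted p = 0.00616), -1.85 ± 0.41 for Plagl1 (edgeR adjusted p = 0.00806), -1.16 ± 0.32 for Igf2 (edgeR adjusted p = 0.0241) and -0.98 ± 0.29 for H19 (edgeR adjusted p = 0.034). Meg3 (-2.07) had an edgeR adjusted p of 0.0598. Without E16.5 Grhl3-/- replicate 2 Cdkn1c alone passed, and Peg3 then had an edgeR adjusted p of 0.0502, Plagl1 of 0.057, Igf2 of 0.074 and H19 of 0.0903. E16.5 is skin and P0 epidermis, so age and tissue cannot be told apart in these comparisons. Free RNA of the dermis at E16.5 was not subtracted in this fit, and its part in these values was not tested.

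**Figure D4:**
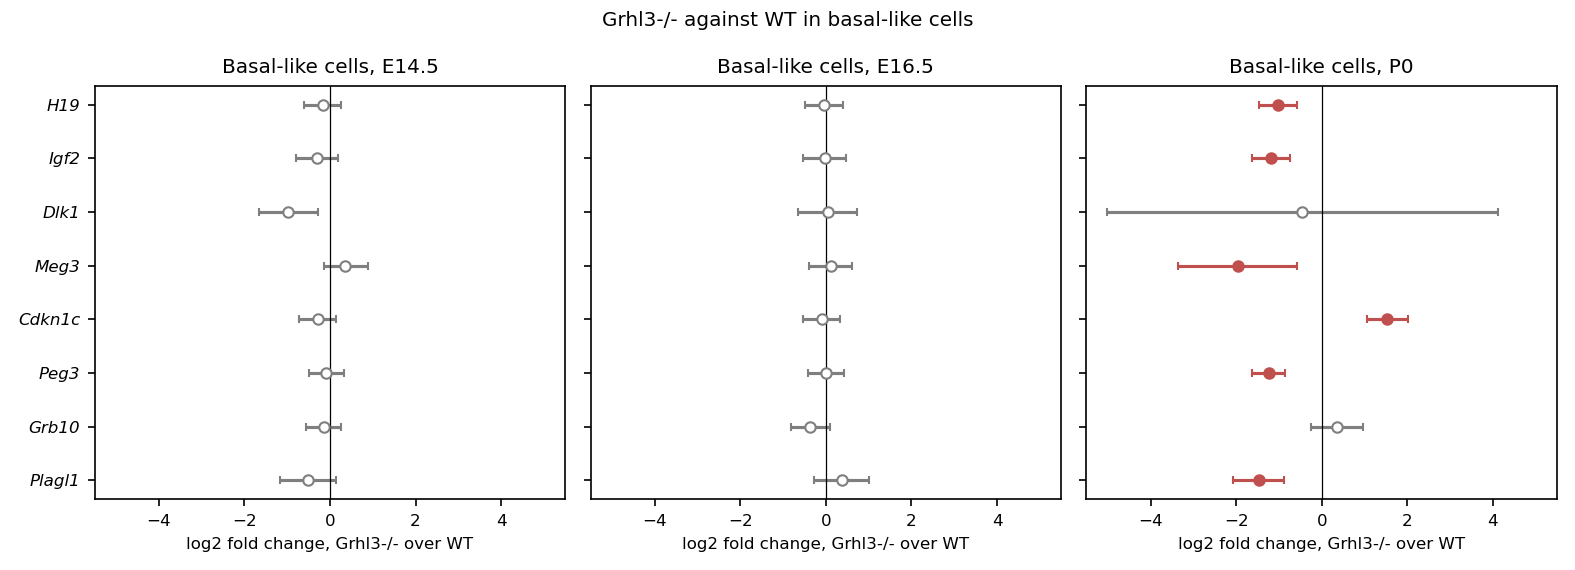
Log2 difference Grhl3-/- minus WT with its 95% interval for each member in basal-like cells at E14.5, E16.5 and P0 (2 against 2 libraries each), filled where the edgeR adjusted p is under 0.05. At P0 Cdkn1c lies at 1.53 and H19, Igf2, Meg3, Peg3 and Plagl1 between -1.02 and -1.96, whereas no member is filled before birth.

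Differentiated-like cells at P0 showed the opposite sign for several members, in a class that was not alike in both genotypes. H19 had 25.8 and 33.9 CPM in WT and 1701 and 442 CPM in Grhl3-/-, a rise by 5.09 ± 0.48 (edgeR adjusted p = 1.58e-05). Igf2 had 22.2 and 20.1 CPM against 215 and 53.0 CPM and rose by 2.55 ± 0.45 (edgeR adjusted p = 0.00133), or by 1.31 without Grhl3-/- replicate 1. Plagl1 rose by 1.20 ± 0.23 (edgeR adjusted p = 0.00232). Cdkn1c had 2 and 1 UMIs in WT against 139 and 142 UMIs (176 and 116 CPM) in Grhl3-/- and passed as well, which makes 4 of 8 members upward where 23.0% of genes passed in either direction.

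The Grhl3-/- cells of that class numbered 30 and 59, and the WT cells 143 and 147. Basal markers summed to 8402 and 16662 CPM in the Grhl3-/- cells and to 634 and 502 CPM in WT, and the stress keratins Krt6a and Krt16 to 4071 and 10125 CPM against 1043 and 313 CPM. Clustering without integration left Cdkn1c as the only member called, with H19 at 0.04, Plagl1 at 0.30 and Igf2 reversed at -1.07. The rise of H19, Igf2 and Plagl1 therefore belongs to that grouping of cells. At E14.5 no member passed, with Peg3 alone at an unadjusted edgeR p under 0.05 and 1.78% of genes called. At E16.5 none passed either, with Plagl1 (0.49) alone under that p and 4.6% of genes called, and DESeq2 called no member at both ages.

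In hair follicle-like cells at P0 Peg3 fell from 128 and 73.4 CPM in WT to 46.3 and 34.2 CPM in Grhl3-/-, by 1.22 ± 0.21 (edgeR adjusted p = 0.00082), a call that held under every alternative that gave a value. Cdkn1c rose from 10.8 and 7.71 CPM to 17.5 and 11.9 CPM, by 0.78 ± 0.21 (edgeR adjusted p = 0.0136), a call that was lost without P0 WT replicate 2 (0.51) and without Grhl3-/- replicate 1 (0.44). The v1 WT library had 28.4 CPM of Peg3, under both Grhl3-/- libraries, and 21.6 CPM of Cdkn1c, above both. In the same cells basal markers summed to 5834 and 4976 CPM in WT and 3489 and 2666 CPM in Grhl3-/-, and differentiation markers to 568 and 525 against 262 and 288 CPM, and their part in these differences was not tested. These 2 of 8 members stand beside 26.0% of genes. H19 (34.1 and 17.2 against 34.2 and 18.4 CPM) did not pass. At E16.5 no member passed (0.1% of genes did), Meg3 alone had an unadjusted edgeR p under 0.05, and DESeq2 called none.

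Fibroblast-like cells at E14.5 had less Cdkn1c in Grhl3-/-, with 3895 and 3990 CPM in WT and 2713 and 2854 CPM in Grhl3-/-. The fall by 0.52 ± 0.06 (1.43-fold, edgeR adjusted p = 0.00522) held under every alternative and is opposite in sign to that of newborn basal-like cells, although the ages and tissues differ and that difference was not tested. Proliferation markers in these cells summed to 1502 and 1506 CPM in WT and 1879 and 1975 CPM in Grhl3-/-. Erythroid markers there summed to 3123 and 2563 against 1671 and 1662 CPM, fibroblast markers to 15714 and 15081 against 18389 and 17773 CPM, and 1 of the 8 clusters held 22.3% of the WT and 9.3% of the Grhl3-/- cells of the class. Their part in the Cdkn1c difference was not tested. Grb10 fell by 0.33 ± 0.07 (edgeR adjusted p = 0.0342), a call lost without E14.5 WT replicate 1 (edgeR adjusted p = 0.0781). These are 2 of 8 members, where 4.33% of genes passed. For Dlk1 the difference was -0.59 (edgeR adjusted p = 0.0883) with all libraries, -0.20 (edgeR adjusted p = 0.103) without WT replicate 1 and -0.90 (edgeR adjusted p = 0.000135) without WT replicate 2. For Meg3 it was 0.44 (edgeR adjusted p = 0.519), -0.11 (edgeR adjusted p = 0.327) and 1.35 (edgeR adjusted p = 1.51e-05). At E16.5 no member passed and 1.17% of genes did, with Cdkn1c (0.15) alone at an unadjusted edgeR p under 0.05, and DESeq2 called none.

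Cells of the H19-Igf2 pair were read for co-variation within classes. Pearson correlations were taken across cells of 1 library and class on log2 UMIs with 1 added, after thinning to 3000 UMIs, and are descriptions, since cells of a library share its depth and free RNA. In fibroblast-like cells H19 with Igf2 gave 0.522 to 0.538 over the 4 libraries at E14.5 and 0.604 to 0.688 at E16.5, and 0.281 to 0.339 and 0.187 to 0.268 after subtraction of each cluster's mean. Endothelial-like cells gave 0.299 to 0.421 and 0.464 to 0.625. In skeletal muscle-like cells at E14.5, which had both genes, it was -0.009 to 0.041. In basal-like cells it was 0.080 to 0.143 at E14.5, 0.107 to 0.204 at E16.5 and 0.264 to 0.485 at P0, with 0.347 in the v1 library. The values of classes other than fibroblast-like cells are without subtraction of cluster means. Basal-like cells were 1 cluster at E14.5 and more than 1 at E16.5 and P0. The part of clusters in the change of their correlation with age was not tested.

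The same pair was read as shares of cells with a UMI. Among P0 WT basal-like cells, H19 was found in 58.5% and 51.9%. Igf2 was found in 16.9% and 17.9% of the cells with H19 and in 0.866% and 1.23% of the cells without it. In Grhl3-/- the shares with Igf2 were 11.1% and 6.05% among cells with H19 and 1.64% and 0.621% among the others. At the same depth melanocyte-like cells, a class that should hold little of either, had H19 in 6.22% and 3.82% and Igf2 in 0.777% and 0.201% of WT cells. These WT classes held 557 and 507 basal-like and 386 and 497 melanocyte-like cells. The Igf2 shares of melanocyte-like cells and of basal-like cells without H19 thus rest on a few cells each. No difference between them, or between replicates, is read from these shares.

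For Dlk1 with Meg3 the sign differed in the library that stood apart. Fibroblast-like cells gave 0.605 to 0.745 in 7 skin libraries and -0.199 in E14.5 WT replicate 1, and within clusters 0.262 to 0.376 and -0.349. Pericyte-like cells gave 0.335 to 0.445 in the other 7 libraries and -0.259 in that one. Skeletal muscle-like cells at E14.5 gave -0.031, 0.077 and 0.089 in the other libraries and -0.220 in that one. In basal-like cells the correlation was 0.237 in that library, 0.379 to 0.564 in the others at E14.5 and 0.469 to 0.567 at E16.5, where both genes were at the level of free RNA but for Dlk1 in E14.5 WT replicate 1, and over all classes the median of 0.43 became 0.15 once doublets had been removed.

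**Figure D5:**
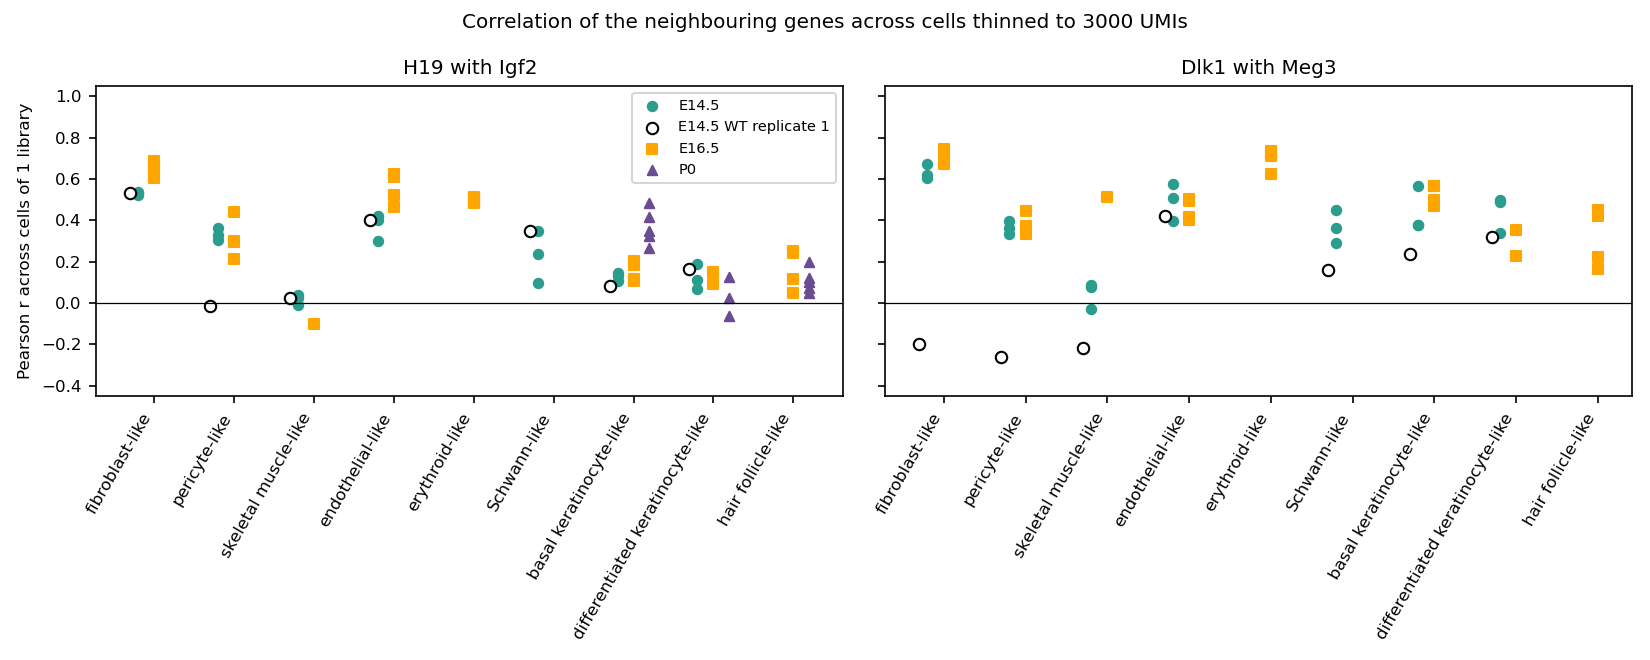
Pearson correlation across cells of H19 with Igf2 and of Dlk1 with Meg3, 1 point per library in each class and age, with E14.5 WT replicate 1 as an open circle. H19 with Igf2 reaches 0.604 to 0.688 in E16.5 fibroblast-like cells, and Dlk1 with Meg3 is -0.199 in fibroblast-like cells of the open circle against 0.605 to 0.745 in the other libraries.

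The genes most like each pair were sought over 64 sums of WT libraries and classes among 5820 genes, by Pearson correlation of log2 CPM with 10 added. For H19 they were Igf2 (0.908), Plagl1 (0.775), Itm2a (0.770), Mest (0.760) and Ehd2 (0.753), and for Igf2 they were H19, Mest (0.897), Itm2a (0.862), Plagl1 (0.855) and Cdkn1c (0.827). Dlk1 was closest to Itm2a (0.955), Cdkn1c (0.943), Col3a1 (0.942), Ndn (0.939) and Meg3 (0.933). Meg3 was closest to Dlk1, then Ndn (0.911), Col1a2 (0.908), Col6a2 (0.904) and Cdkn1c (0.904). The neighbour in the genome was thus the closest gene for H19, for Igf2 and for Meg3. Sums of 1 library share its depth and its free RNA, and classes are not independent samples. Free RNA was not subtracted from these sums, and its part in the correlations was not tested.

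Levels differed between proliferating and other fibroblast-like cells. In fibroblast-like cells all 8 members were lower in proliferating cells than in cells without any UMI of the proliferation genes in each of the 8 skin libraries. The log2 ratio of CPM with 10 added was -0.60 to -1.44 for Cdkn1c, the cell cycle inhibitor, -0.79 to -1.85 for Plagl1 and -0.15 to -0.47 for Peg3. Cells were called proliferating from 3 or more UMIs of these genes, and no test was made. The split was over all fibroblast-like clusters together, and the part of clusters in it was not tested.

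Other imprinted genes, a list of 51, were read in the same fits. In P0 basal-like cells 13 of 39 tested rose and 6 fell in Grhl3-/-, where 36.5% of all genes passed in either direction. Phlda2, a maternally read growth restrainer of the placenta, rose by 2.35 ± 0.32 and Snrpn, a splicing protein gene, by 1.46 ± 0.16, as did the transporter gene Slc22a18 by 1.32 ± 0.31, whereas Zim1 fell by 2.85 ± 1.04 and Ascl2, a basic helix-loop-helix factor, by 2.22 ± 0.37. Against E16.5 the difference itself passed for 10 of them, 9 upward and 1 downward, beside 14.4% of all genes, led by Phlda2 (2.25), Snrpn (1.84) and Slc22a18 (1.84). No gene of the list passed at E14.5 or E16.5, where 4 at each age had an unadjusted edgeR p under 0.05. In hair follicle-like cells at P0 7 of 36 rose and 3 fell, a share near the 26.0% of all genes, with Phlda2 at 1.91, Nnat at 1.38 and Osbpl5 at -0.83. Phlda2 thus rose in both classes of newborn Grhl3-/- keratinocytes. In differentiated-like cells at P0 8 of 30 rose and 1 fell (23.0% of all genes passed), in the grouping whose limits are given above.

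With age, WT basal-like cells had 4 of the list higher and 9 lower at E16.5 than at E14.5, beside 16.1% of all genes, with Nnat (-4.37) and Mest (-1.85) the most lowered. From E16.5 to P0 7 rose and 24 fell, beside 60.7% of all genes, led by Mest (-7.52), Mirg (-6.68), Peg12 (-5.79), Ndn (-4.04) and Nnat (-3.98). Free RNA was not estimated for these genes, and age and the removal of the dermis cannot be told apart for them. Fibroblast-like cells of WT had 5 higher and 17 lower at E16.5, beside 37.3% of all genes, among them Dio3 (-4.90), Asb4 (-3.30), Nnat (-2.93) and Phlda2 (-2.16). In Grhl3-/- fibroblast-like cells at E14.5 none of 45 rose and 6 fell, beside 4.33% of all genes, among them Asb4 (-2.60), Dio3 (-2.42), Nnat (-1.02), Zdbf2 (-0.64) and Mest (-0.44). Dio3 is among the genes raised in cells without Meg3 of E14.5 WT replicate 1, which had 38.4 CPM of it in this class against 4.63 to 15.3 CPM in the other E14.5 libraries.

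Genes of the insulin-like growth factor axis, a list of 26, were read as well. In newborn Grhl3-/- basal-like cells 2 of 23 tested rose and 6 fell, a share at the level of the 36.5% of all genes that passed, so that the count is no result about the axis. Igfbp5, a binding protein of the growth factors, rose by 3.36 ± 0.34, and Igfbp3, another, fell by 2.35 ± 0.29. Pappa, a protease that cleaves binding proteins, fell by 2.31 ± 0.61, the receptor gene Igf1r by 1.44 ± 0.13 and the docking protein gene Irs2 by 1.57 ± 0.16. Against E16.5 the difference itself passed for 4 of them, where 14.4% of all genes passed, namely Igfbp5 (3.61), Igfbp3 (-1.90), Irs2 (-1.69) and Igf1r (-0.95). In hair follicle-like cells at P0 3 of 22 rose and 6 fell, beside 26.0% of all genes, with Igfbp5 (1.83) again higher and Igf1r (-1.23) and Pappa (-1.34) again lower. Ligand Igf2 and receptor Igf1r were both lower in newborn Grhl3-/- basal-like cells.

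In WT basal-like cells Igfbp5 fell from E14.5 to E16.5 by 2.46 and from E16.5 to P0 by 3.68, while Igf1 fell by 1.53 and then fell by 4.37. Fibroblast markers in these cells went from 2438 and 1954 CPM at E16.5 to 201 and 193 CPM at P0, free RNA was not estimated for these genes, and age and the removal of the dermis cannot be told apart. Over the second step Pappa rose by 4.30 and Irs2 by 3.53. Of all genes 16.1% passed over the first step and 60.7% over the second, in either direction. Fibroblast-like cells at E14.5 had 4 of 22 genes of the axis lower in Grhl3-/- and none higher, beside 4.33% of all genes, namely the binding protein genes Igfbp3 (-1.18), Igfbp6 (-1.08), Igfbp2 (-1.03) and Igfbp4 (-0.72). At E16.5 Igfbp6 alone passed there, at -0.65, beside 1.17% of all genes.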

How the data were processed

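Per the labels, the 13 libraries are 10x Genomics Chromium 3′ libraries of mouse skin (8 of back skin, 5 of P0 epidermis), 12 with v2 chemistry and 1 titled v1. The submitters' processing notes name Cell Ranger 1.3.1, Seurat and mm10. The authors deposited whole UMI counts per gene and called barcode, with no normalization. Kept cells had 600 to 4800 genes in embryos or 900 to 7700 in newborns, with mitochondrial UMIs at or under 10%. Libraries of an age were integrated and clustered in Seurat 5.3.0 (R 4.3.3; 3000 variable genes, 30 components, 20 neighbours, resolution 1.0), the v1 library alone, without the members, the lists of other imprinted and insulin-like growth factor axis genes, and Grhl3. Authors' cell labels were not used here.

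UMI counts were summed per library and class (20 or more cells) and tested with edgeR 4.0.16 (filterByExpr, TMM, quasi-likelihood test, Benjamini-Hochberg adjustment over all genes, threshold 0.05) in a model of group means, over the 12 v2 libraries, or the 8 skin libraries for fibroblast-like cells. The comparison of both classes had library as a block. The methods call the 2 libraries of a group biological replicates from littermates. P-values therefore measure the spread between the 2 animals of a group, pooled over all groups of the fit. Intervals cover that spread, and floors of 3 UMIs cover counting error only. Other steps used Python 3.11.15 and scanpy 1.11.5. On simulated counts for basal-like cells at E16.5 (12466 genes, 200 changed) the test recovered 9% of 1.5-fold and 65% of 3-fold changes and called 3 of the others.

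Alternatives were DESeq2 1.42.0, other size factors, no low-count filter, thinned sums, doublets removed by highest Scrublet score (4.05 to 7.33% of cells per library, since its own calls fell under 0.5% in many libraries), no integration, resolution 0.6, a 5% mitochondrial limit, the 4 libraries of an age alone, the replicate block, leaving out each library and, chosen after seeing the data, unnamed clusters added and correlations within clusters. Libraries shared at most 1.76% of barcodes, and doublets were otherwise kept.

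The members and lists were chosen with earlier results of these data known. Members are always named. Of each list at most 5 genes per comparison are named, those past the threshold with the largest change, and for likeness the 5 highest correlations. Promoters and loci are from RefSeq (GRCm38.p6) and GENCODE M21.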

Additional observations from a re-analysis of the deposited data

Results flagged for a closer look

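The 4 libraries of an age, both genotypes together, were read for a library far from the others. These are not groups of the study, and a genotype difference enters such a set as well. The gap of the extreme library to its nearest neighbour was divided by the range. Of 71 such sets 8 were above the 95% critical value of Dixon's test, and chance gives about 1 in 20.

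E14.5 WT replicate 1 lay apart 4 times. In basal-like cells it was highest for Dlk1 (713 CPM against 229 to 262, gap over range 0.932), Igf2 (0.926) and H19 (0.861), and in fibroblast-like cells it was lowest for Meg3 (0.833). Its erythroid marker sum in basal-like cells and its fibroblast-like cells without Meg3 are given in the report, and their part in these values was not tested.

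P0 Grhl3-/- replicate 1 lay apart in differentiated-like cells for Igf2 (0.831) and Peg3 (0.837), where the class held 30 cells of that library. E16.5 WT replicate 2 lay apart for Peg3 in hair follicle-like cells (0.913), and E16.5 Grhl3-/- replicate 2 for Grb10 in basal-like cells (0.871).

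A difference between WT and Grhl3-/- basal-like cells that was itself not the same at P0 and E16.5 was found for Cdkn1c (1.64), Peg3 (-1.24), Plagl1 (-1.85), Igf2 (-1.16) and H19 (-0.98), as log2 values tested by an interaction term. Free RNA was not subtracted in that fit. The WT change from E14.5 to E16.5 differed between fibroblast-like and basal-like cells for Grb10 (0.57), Meg3 (-0.58) and H19 (-0.38). The value for Meg3 rests on E14.5 WT replicate 2 and the call for H19 on both E16.5 WT libraries, as given in the report.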

How the results depend on the processing

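Of 1348 values of members under an alternative 1174 kept their side of the threshold, 64 lost the call and 102 gained it. Another 8 reversed direction where the main or the alternative value passed. Changes of direction where neither passed are counted among the 1174. Of the levels 188 of 256 and of the pair correlations 27 of 35 moved by less than the spread between libraries. Where the cause of a change is not named it was not tested.

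Counts of members past the threshold are given next. Without the low-count filter, which tests more genes, they were 1 (main 0) for Grhl3-/- against WT in E14.5 basal-like cells, 3 (main 0) and 2 (main 0) in differentiated-like cells at E14.5 and E16.5, 7 (main 2) in E14.5 fibroblast-like cells and 1 (main 0) in E16.5 hair follicle-like cells, and, for WT from E14.5 to E16.5, 5 (main 1) in basal-like, 6 (main 2) in differentiated-like and 6 (main 3) in fibroblast-like cells and 5 (main 3) for the difference between classes. Without integration they were 1 and 1 (main 0) in differentiated-like cells at E14.5 and E16.5, 1 (main 4) there at P0, 1 (main 2) in E14.5 fibroblast-like cells, and for WT ages 7 (main 1) in basal-like cells, 5 (main 2) in differentiated-like cells and 8 (main 3) for the difference between classes. With only the 4 libraries of a comparison they were 3 (main 0) in E14.5 differentiated-like, 1 (main 2) in E14.5 fibroblast-like and 1 (main 2) in P0 hair follicle-like cells, and for WT ages 4 (main 1) in basal-like, 4 (main 2) in differentiated-like and 1 (main 3) in fibroblast-like cells. DESeq2 gave 5 (main 2) in E14.5 fibroblast-like cells and 2 (main 1) for WT ages in basal-like cells, and removal of doublets 3 in the latter. Resolution 0.6 gave 5 (main 2) in differentiated-like and 1 (main 3) in fibroblast-like cells for WT ages and 5 (main 3) for the difference between classes. Unnamed clusters added gave 1 (main 2) in E14.5 fibroblast-like cells and 6 (main 3) for WT ages there.

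Leaving out 1 library gave 0 to 1 members in E14.5 basal-like and in E16.5 differentiated-like cells, 1 to 6 in E14.5 fibroblast-like cells, 1 to 2 in P0 hair follicle-like cells and 1 to 6 for P0 against E16.5 in basal-like cells, and for WT from E14.5 to E16.5 0 to 3 in basal-like, 1 to 2 in differentiated-like and 0 to 6 in fibroblast-like cells and 1 to 5 for the difference between classes. Same-numbered libraries did not deviate together (correlation of deviations -0.082 to 0.025). A fit with the replicate block called 4 members in E14.5 fibroblast-like cells (main 2) and moved no other count by over 1.5 times.

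The values that reversed were Meg3 (-0.93, no integration) in basal-like cells and Peg3 (1.62, resolution 0.6) in differentiated-like cells from E14.5 to E16.5, Plagl1 from E16.5 to P0 in basal-like cells (-0.96, unnamed clusters added) and in differentiated-like cells (0.38, resolution 0.6), Igf2 in P0 differentiated-like cells (-1.07, no integration), Meg3 (from -0.18 to 0.72 without E14.5 WT replicate 2, and to -0.73 without replicate 1) and Cdkn1c (0.41, resolution 0.6) in fibroblast-like cells from E14.5 to E16.5, and Meg3 for the difference between classes (0.86, no integration). The median correlation of Dlk1 with Meg3 moved from 0.43 to 0.15 with doublets removed. The median correlation between having any UMI of Dlk1 and any of Meg3, written as a percentage, was 8.76 and became 30.4 at 2 or more UMIs. No value could be had for Grhl3-/- against WT in E16.5 differentiated-like cells at resolution 0.6, for P0 hair follicle-like cells without integration, for the 2 interactions in 4 libraries alone, or for the replicate block in the difference between classes. Depth limits Dlk1 and Meg3 at P0, with 1 to 22 UMIs per class and library in v2 basal-like cells.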
